A study of Mus musculus with 8 samples.

Results

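The 10 genes described here carry glucose into the cell and turn it into lactate: the glucose transporter Slc2a1 and the enzymes Hk2, Gpi1, Pfkl, Aldoa, Tpi1, Pgk1, Eno1, Pkm and Ldha. They were found by gene symbol in a table of 25477 loci, and each of the 10 stood on a single locus. The libraries came from mouse lymphoma cells of the spleen that carried the B cell marker B220 and green fluorescent protein (GFP), taken when the animals were killed. In 4 libraries the cells carried shCrebbp, a short hairpin RNA named for Crebbp, which encodes a histone acetyltransferase. In the other 4 they carried a scramble shRNA as control. Titles of shCrebbp libraries bear 2 name prefixes, AO228 (shCrebbp 1 and 2) and AO229 (shCrebbp 3 and 4), while the scramble libraries 1 to 4 all bear AO227. The labels do not say what a prefix stands for (a hairpin, an animal or a tumour line), nor do they give the mouse strain or genotype, the age, the promoter that drives the hairpin, or whether libraries came from separate animals. All p-values below therefore measure the spread between these libraries only.

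Glucose enters a cell through a carrier such as GLUT1, the protein of Slc2a1, and is trapped by phosphorylation. The hexose stage of glycolysis spends ATP to make a doubly phosphorylated sugar, which aldolase splits into triose phosphates. The triose stage returns ATP and pyruvate, and lactate dehydrogenase reduces pyruvate to lactate while restoring NAD+. Dividing lymphocytes and many lymphomas send much of their glucose to lactate even in the presence of oxygen, and genes of the pathway are classic targets of the hypoxia-inducible factor HIF1 and of MYC.

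The deposited values are FPKM, fragments scaled to transcript length and to the size of the library, so levels of different genes can be set side by side. Sequencing depth is not given with them. Each fit was made with limma on log2(FPKM + 1) over 11417 loci whose mean reached 1 FPKM or more, a minimum that all 10 members passed. Crebbp itself stood at 18.9, 26.6, 23.4 and 19.3 FPKM in shCrebbp 1 to 4, against 33.7, 22.9, 21.3 and 25.8 FPKM in scramble 1 to 4. These ranges overlapped, the log2 difference was -0.22 (95% interval -0.62 to 0.19; exact permutation p = 0.314, 2-sided), and a lower Crebbp transcript level was not detectable. The shCrebbp 1 and scramble 2 libraries stood apart from the other 6 across all loci: the interquartile range of the log2 deviation from the median of the other libraries was 0.728 in shCrebbp 1 and 0.734 in scramble 2, against 0.430 to 0.478 in the rest. All 9 B cell marker genes had a mean of at least 1 FPKM and summed to 2783 to 3575 FPKM in shCrebbp libraries and 2691 to 3258 FPKM in scramble libraries. Markers of T cells (4 of 7 loci at a mean of 1 FPKM or more) summed to at most 34.6 FPKM in shCrebbp libraries and 45.3 FPKM in scramble libraries, and those of neutrophils (1 of 6) to at most 4.19 FPKM and 4.44 FPKM. Macrophage and monocyte markers (4 of 9) summed to 227 to 377 FPKM in shCrebbp libraries and 308 to 443 FPKM in scramble libraries.

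The members spanned a wide range of levels. Averaged over the 4 shCrebbp libraries, Pkm was highest at 220.3 ± 102 FPKM (SD) and Hk2 lowest at 2.49 ± 1.11 FPKM, with Aldoa (153 FPKM), Ldha (109 FPKM), Pgk1 (85.7 FPKM), Tpi1 (79.5 FPKM), Eno1 (71.3 FPKM), Gpi1 (66.0 FPKM), Slc2a1 (28.4 FPKM) and Pfkl (14.5 FPKM) between them. In that order of shCrebbp means, the ranges of neighbouring genes overlapped down to Gpi1, and Slc2a1, Pfkl and Hk2 each lay wholly below the gene above. Over the 4 scramble libraries the order was Aldoa (177 FPKM), Pkm (161 FPKM), Gpi1 (74.1 FPKM), Ldha (69.2 FPKM), Tpi1 (55.8 FPKM), Pgk1 (55.0 FPKM), Eno1 (50.1 FPKM), Slc2a1 (33.6 FPKM), Pfkl (16.2 FPKM) and Hk2 (2.76 FPKM). There the ranges of Aldoa and Pkm overlapped, as did those of neighbours from Gpi1 to Eno1. The transporter and the kinases Pfkl and Hk2 thus had the lowest FPKM in both groups, and Slc2a1, Pfkl and Hk2 did not overlap with one another.

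Between shCrebbp and scramble libraries no member passed the threshold. Of the 11417 loci tested, 0 were called at an adjusted p under 0.05 (limma with Benjamini-Hochberg adjustment; 0.0% of loci), and 573 loci, or 5.02%, had an unadjusted p under 0.05. None of the 10 members was among those 573, and their adjusted p ran over 0.915 to 0.967. Leaving out shCrebbp 1 or scramble 2, the libraries that stood apart, also gave 0 members under an unadjusted p of 0.05. The log2 differences were above 0 in 5 members and below 0 in the other 5, with a median of 0.06 beside 0.01 over all loci. That median ran from -0.08 to 0.25 with a library left out, and was below 0 without shCrebbp 1, shCrebbp 2 or scramble 4. In no member did the 4 shCrebbp libraries lie wholly above or below the 4 scramble libraries, a separation seen in 3.32% of loci. The exact permutation tests below are 2-sided over the 70 divisions of 8 libraries into groups of 4, for which the smallest possible p is 0.0286.

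Uptake and the hexose stage came first in the pathway. Slc2a1 (chr4:119108745-119137579 of mm10, the build named in the submitters' processing notes) encodes GLUT1, the main glucose carrier of activated lymphocytes. It stood at 25.8, 30.6, 26.0 and 31.1 FPKM in shCrebbp 1 to 4, against 39.1, 37.0, 31.9 and 26.5 FPKM in scramble 1 to 4. The scramble libraries 1 to 3 lay above every shCrebbp library, and scramble 4 lay among them. The log2 difference was -0.23 (SE 0.15; exact permutation p = 0.114), with a 95% interval of -0.58 to 0.12.

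Hk2 (chr6:82725027-82774468) encodes hexokinase 2, which phosphorylates glucose on entry. Its level was 2.60, 4.02, 1.59 and 1.76 FPKM in shCrebbp 1 to 4, against 4.25, 2.20, 2.46 and 2.15 FPKM in scramble 1 to 4. The highest libraries were scramble 1 and shCrebbp 2, and the lowest were shCrebbp 3 and 4 (log2 difference of the groups -0.12; SE 0.29; exact permutation p = 0.6). Gpi1 (chr7:34201327-34230336), the isomerase that turns glucose 6-phosphate into fructose 6-phosphate, was at 39.8, 73.8, 80.3 and 70.2 FPKM in shCrebbp 1 to 4, against 80.3, 70.8, 68.1 and 77.3 FPKM in scramble 1 to 4. Only shCrebbp 1 departed from a narrow band of Gpi1 levels, and it was the lowest of the 8 libraries (log2 difference -0.21; SE 0.21; exact permutation p = 0.571).

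Pfkl (chr10:77978650-78009796) encodes the liver-type subunit of phosphofructokinase, the committed step. It had 14.0, 17.9, 16.3 and 9.67 FPKM in shCrebbp 1 to 4, against 16.0, 19.1, 12.7 and 16.9 FPKM in scramble 1 to 4. Its lowest library was shCrebbp 4, and the groups otherwise overlapped (log2 difference -0.17; SE 0.21; exact permutation p = 0.514). Aldoa (chr7:126795234-126800447), aldolase A, which splits fructose 1,6-bisphosphate, had 162, 168, 151 and 131 FPKM in shCrebbp 1 to 4, against 155, 198, 181 and 173 FPKM in scramble 1 to 4. The shCrebbp 3 and 4 libraries were the lowest of the 8 for Aldoa (log2 difference of the groups -0.20; SE 0.14; exact permutation p = 0.114).

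The triose stage and lactate production had another distribution over libraries. Tpi1 (chr6:124808941-124814296) encodes triosephosphate isomerase, which interconverts the products of aldolase. It reached 162 and 86.0 FPKM in shCrebbp 1 and 2 but 35.9 and 34.2 FPKM in shCrebbp 3 and 4, against 50.3, 73.8, 57.8 and 41.3 FPKM in scramble 1 to 4. All 4 scramble libraries thus lay between the AO228 and the AO229 pair, and the group difference of 0.24 on the log2 scale came with a 95% interval of -0.81 to 1.28 (exact permutation p = 0.714). Pgk1 (chrX:106187100-106203699), phosphoglycerate kinase 1, the first ATP-yielding enzyme of the pathway, had 151, 80.1, 54.4 and 57.0 FPKM in shCrebbp 1 to 4, against 43.3, 63.3, 63.1 and 50.3 FPKM in scramble 1 to 4. Again shCrebbp 1 and 2 were the highest libraries, while shCrebbp 3 and 4 fell within the scramble range (log2 difference 0.52; 95% interval -0.18 to 1.22; exact permutation p = 0.229).

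Eno1 (chr4:150237197-150248873) encodes enolase 1, which makes phosphoenolpyruvate. It had 105, 65.2, 51.1 and 63.7 FPKM in shCrebbp 1 to 4, against 43.7, 55.6, 51.4 and 49.8 FPKM in scramble 1 to 4. The shCrebbp libraries 1, 2 and 4 exceeded every scramble library, and shCrebbp 3 did not (log2 difference 0.45; 95% interval -0.02 to 0.93; exact permutation p = 0.0857). Pkm (chr9:59656368-59679510), pyruvate kinase of muscle and dividing cells, had 367, 213, 152 and 149 FPKM in shCrebbp 1 to 4, against 152, 187, 168 and 138 FPKM in scramble 1 to 4. The AO228 pair was above all scramble libraries and the AO229 pair within their range (log2 difference of the groups 0.35; SE 0.28; exact permutation p = 0.343). The deposited value is 1 per gene, so the M1 and M2 splice forms of Pkm are not separated.

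Ldha (chr7:46845804-46855629) encodes lactate dehydrogenase A, which ends the route at lactate. It had 180, 104, 71.3 and 80.7 FPKM in shCrebbp 1 to 4, against 64.5, 64.4, 82.6 and 65.3 FPKM in scramble 1 to 4. As with Tpi1, Pgk1, Eno1 and Pkm, shCrebbp 1 was the highest library and shCrebbp 2 the next. The group difference in Ldha was 0.56 on the log2 scale (95% interval -0.04 to 1.17; exact permutation p = 0.0857), the largest among the 10 members. Without shCrebbp 1 the group differences shrank to 0.29 for Ldha, 0.25 for Eno1, 0.21 for Pgk1 and 0.08 for Pkm. Averages with SD make the unequal spread plain: Ldha was at 109 ± 49.4 FPKM in shCrebbp libraries and 69.2 ± 8.93 FPKM in scramble libraries (n = 4 each), and Tpi1 was at 79.5 ± 60.0 FPKM in shCrebbp libraries and 55.8 ± 13.8 FPKM in scramble libraries.

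**Figure D1:**
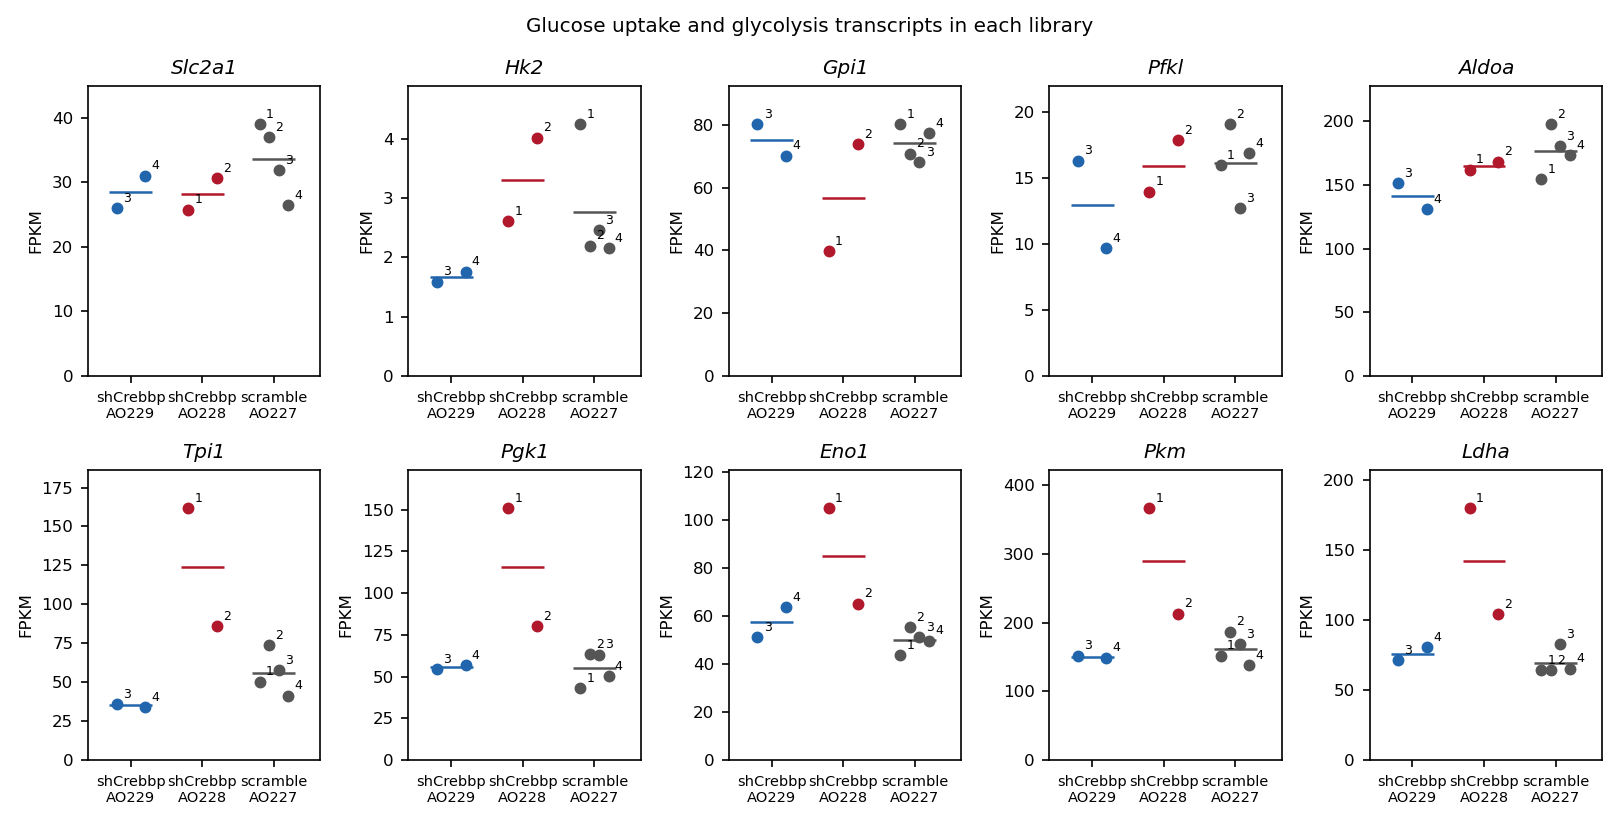
FPKM (y axis, from 0) of each of the 10 genes in every library, with shCrebbp AO229, shCrebbp AO228 and scramble AO227 from left to right; points carry the library number and lines mark the means. In the lower row, Tpi1, Pgk1, Eno1, Pkm and Ldha are highest in shCrebbp 1, with shCrebbp 2 next, and in the upper row no gene shows that order.

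The promoters of 3 of these genes are printed because the genes were high in the same libraries and differ in the short motifs their promoters hold. Each is the 300-base RefSeq window (GRCm38.p6) from 250 bases before to 50 bases after a start site, read 5′ to 3′ on the gene's strand, and the window nearest the start of the deposited locus was taken. Capitals mark every match, on either strand, to CACGTG (the E-box of MYC and MAX), ACGTG or GCGTG (core letters of the hypoxia response element, ACGTG being part of CACGTG), TGACGTCA or TGACG (the cAMP response element and its shorter form, the first holding the second) and TATAAA. Ldha lies at chr7:46845554-46845853 (plus strand), Eno1 at chr4:150236947-150237246 (plus strand) and Tpi1 at chr6:124814109-124814408 (minus strand).
Ldha: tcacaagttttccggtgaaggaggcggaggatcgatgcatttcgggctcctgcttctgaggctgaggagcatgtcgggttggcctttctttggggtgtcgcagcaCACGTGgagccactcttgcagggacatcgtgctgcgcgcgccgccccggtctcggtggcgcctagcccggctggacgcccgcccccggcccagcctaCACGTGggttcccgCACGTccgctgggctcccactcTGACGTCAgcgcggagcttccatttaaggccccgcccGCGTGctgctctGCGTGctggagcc
Eno1: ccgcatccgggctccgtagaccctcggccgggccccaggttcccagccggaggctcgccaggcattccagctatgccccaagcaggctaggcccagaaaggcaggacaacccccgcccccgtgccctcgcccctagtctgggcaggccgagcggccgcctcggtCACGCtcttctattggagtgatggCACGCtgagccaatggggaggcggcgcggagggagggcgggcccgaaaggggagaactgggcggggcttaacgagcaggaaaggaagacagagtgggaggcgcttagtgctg
Tpi1: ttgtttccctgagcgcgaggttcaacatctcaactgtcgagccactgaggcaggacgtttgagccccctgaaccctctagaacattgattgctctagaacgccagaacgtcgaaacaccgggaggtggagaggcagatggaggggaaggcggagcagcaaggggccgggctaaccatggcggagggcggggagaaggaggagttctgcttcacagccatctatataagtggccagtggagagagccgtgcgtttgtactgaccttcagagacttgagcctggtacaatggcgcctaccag

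The Ldha window held 2 matches to CACGTG, 5 to ACGTG, 2 to GCGTG, 1 to TGACGTCA and 2 to TGACG. Matches on the 2 strands were counted separately. Each E-box thus gave 2 of the ACGTG matches, and the single TGACGTCA gave both TGACG matches. In the Eno1 window there were 2 matches to GCGTG and none to the other motifs, and in the Tpi1 window none of the motifs matched. Windows were found for all 10 members, with 3 each for Aldoa and Eno1, 2 each for Pkm and Ldha, and 1 for each of the rest. Only the 1 nearest the start of the deposited locus was searched, whereas the shares over all genes count every window. CACGTG stood in 1 of the 10, that of Ldha, and in 7.15% of the 32851 promoter windows of all genes. ACGTG stood in 4 of the 10 (Slc2a1, Hk2, Pgk1 and Ldha) against 19.6% of all windows, and GCGTG in 4 of the 10 (Slc2a1, Pfkl, Eno1 and Ldha) against 32.4%. TGACGTCA stood in 1 of the 10 (Ldha) against 1.79%, TGACG in 3 of the 10 (Hk2, Pkm and Ldha) against 20.8%, and TATAAA in 1 of the 10 (Slc2a1) against 13.6%. No searched motif stood in the windows of all 5 genes that were highest in the AO228 libraries. That was likely beforehand, since even the commonest motif, GCGTG, stood in only 32.4% of all windows. A link of any motif to the levels of these genes was not tested.

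To describe the split within the shCrebbp group, the 3 name prefixes were fitted as separate coefficients over all loci. AO228 minus scramble and AO229 minus scramble use the same 4 scramble libraries, so their values are given side by side and are not independent. In AO228 libraries, 5 of the 10 members were higher than in scramble libraries at an unadjusted p under 0.05 and none was lower, where 4.98% of all loci were higher by the same rule. None of the 5 passed after adjustment (lowest adjusted p = 0.218, limma). Ldha averaged 142 FPKM in AO228 libraries and 69.2 FPKM in scramble libraries, 0.98 higher on the log2 scale (SE 0.23; unadjusted p = 0.00217). Tpi1 averaged 124 FPKM in AO228 libraries and 55.8 FPKM in scramble libraries (log2 difference 1.10; SE 0.29), and Pgk1 116 FPKM in AO228 libraries and 55.0 FPKM in scramble libraries (log2 difference 1.01; SE 0.26). Pkm averaged 290.1 FPKM in AO228 libraries and 161 FPKM in scramble libraries (log2 difference 0.80; SE 0.23), and Eno1 85.2 FPKM in AO228 libraries and 50.1 FPKM in scramble libraries (log2 difference 0.72; SE 0.21). The transporter and the hexose-stage genes ranged from -0.44 for Gpi1 to 0.21 for Hk2 in AO228 minus scramble, and every one of their 95% intervals took in 0.

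Both AO228 libraries exceeded all 4 scramble libraries in 5 of the 10 members, beside 9.57% of all loci, and they exceeded all of the other 6 libraries in the same 5, beside 7.08% of all loci. That division of the pathway, from Tpi1 onwards, was noticed in these values and was not tested. Much of it rested on shCrebbp 1. Without that library, 1 member (Ldha) instead of 5 was higher in AO228 at an unadjusted p under 0.05, and the differences of shCrebbp 2 alone from scramble were 0.65 for Tpi1, 0.59 for Ldha, 0.55 for Pgk1, 0.41 for Pkm and 0.38 for Eno1, with that lone library assumed to vary like the others. Without scramble 2 the count stayed at 5.

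In AO229 libraries no member differed from scramble libraries at an unadjusted p under 0.05, a rule met by 9.87% of all loci in either direction. The median log2 difference over the 10 members was -0.15 in AO229 minus scramble, beside 0.02 over all loci, whereas it was 0.46 in AO228 minus scramble, beside 0.01. Tpi1 was lowest, with 35.0 FPKM on average in AO229 libraries and 55.8 FPKM in scramble libraries (log2 difference -0.63; 95% interval -1.28 to 0.03). Both AO229 libraries lay below all 4 scramble libraries in Hk2, Aldoa and Tpi1, 3 of the 10 members, beside 11.3% of all loci.

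**Figure D2:**
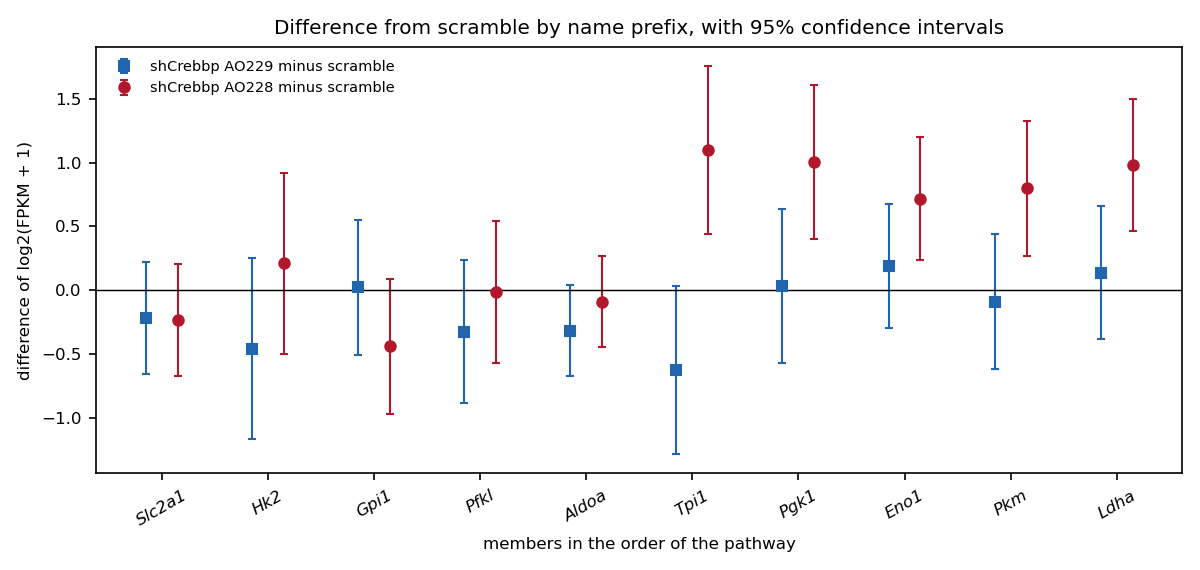
Difference of log2(FPKM + 1) from the 4 scramble libraries (y axis) for each gene in pathway order, with squares for AO229, circles for AO228 and bars for 95% confidence intervals from limma. The AO228 intervals lie above 0 for Tpi1, Pgk1, Eno1, Pkm and Ldha and take in 0 for the others, and every AO229 interval takes in 0.

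Set directly against each other, AO229 and AO228 libraries differed in 146 of the 11417 loci at an adjusted p under 0.05 (1.28%), and no member was among them. Tpi1 came nearest, averaging 35.0 FPKM in AO229 libraries and 124 FPKM in AO228 libraries, a log2 difference of -1.72 (SE 0.33; 95% interval -2.48 to -0.96; adjusted p = 0.0504, limma). It passed under 4 of the 14 alternative settings and missed the threshold under the rest. At an unadjusted p under 0.05, 4 of the 10 members were lower in AO229, beside 8.64% of all loci, and 0 were higher, beside 7.75%. Beside Tpi1 these were Pgk1 (55.7 FPKM in AO229 and 116 FPKM in AO228; log2 difference -0.97), Pkm (150.5 FPKM in AO229 and 290.1 FPKM in AO228; -0.89) and Ldha (76.0 FPKM in AO229 and 142 FPKM in AO228; -0.85), with adjusted p of 0.142 to 0.157 (limma). The remaining members ran from -0.67 for Hk2 (-0.43 without shCrebbp 2) to 0.46 for Gpi1 (0.025 without shCrebbp 1 and 0.90 without shCrebbp 2), and the median over all 10 was -0.60, against 0.00 over all loci. Without shCrebbp 1 the difference stayed under an unadjusted p of 0.05 in Tpi1 alone (log2 difference -1.27; unadjusted p = 0.00552), with Pgk1 at -0.52, Pkm at -0.50, Ldha at -0.45 and Eno1 at -0.19.

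B cell, plasma cell and stromal marker sums did not overlap between AO228 and AO229, and T cell, neutrophil, erythroid and macrophage sums did. With 2 libraries per prefix, sums can fail to overlap by chance, and the share of all loci that did so was not counted. B cell markers summed to 3575 and 3512 FPKM in AO229, 3349 and 2783 FPKM in AO228 and 2691 to 3258 FPKM in scramble libraries. For these markers shCrebbp 1 lay nearer to the AO229 libraries than to shCrebbp 2. The summed level of 5 plasma cell markers, all at a mean of 1 FPKM or more, was 324 and 306 FPKM in the AO229 libraries, 192 and 193 FPKM in the AO228 libraries and 280.2 to 411 FPKM in scramble libraries. Stroma and endothelium markers, of which 1 of 7 reached a mean of 1 FPKM, summed to 48.1 and 41.7 FPKM in AO229, 16.4 and 15.3 FPKM in AO228 and 19.9 to 40.6 FPKM in scramble libraries. Erythroid markers (3 of 7) summed to 30.7 and 14.2 FPKM in AO229, 15.6 and 15.7 FPKM in AO228 and 4.23 to 27.3 FPKM in scramble libraries. Macrophage and monocyte markers summed to 252 and 332 FPKM in AO229 and 377 and 227 FPKM in AO228. T cell markers summed to 30.9 and 22.3 FPKM in AO229 and 34.6 and 24.2 FPKM in AO228. Neutrophil markers summed to 4.19 and 0.449 FPKM in AO229 and 0 and 3.73 FPKM in AO228. The part of any of these markers in the differences of the members was not tested. In sorted bulk samples, fewer cells of a type and less RNA per cell cannot be told apart.

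Set beside all loci, the excess of the 5 late genes lay above the 95th percentile in shCrebbp 1 and below it in shCrebbp 2. The 5 genes were set apart by their values in these same libraries, and shCrebbp 1 was among the libraries that stood apart across all loci. The ranges are therefore a description only. In shCrebbp 1 the deviations of Tpi1, Pgk1, Eno1, Pkm and Ldha from the scramble mean were 1.06 to 1.55 on the log2 scale, where all loci ran from -1.18 to 0.91 between their 5th and 95th percentiles. In shCrebbp 2 the same 5 genes deviated by 0.38 to 0.65, inside the range of -0.87 to 0.71 for all loci. Slc2a1, Hk2, Gpi1, Pfkl and Aldoa deviated by -0.88 to -0.03 in shCrebbp 1 and so lay below their scramble mean. Of these, only Slc2a1 and Gpi1 lay below every scramble library there. In the AO229 libraries the 5 late genes ran from -0.59 to 0.05 in shCrebbp 3 and from -0.66 to 0.34 in shCrebbp 4, with Tpi1 at the low end of both.

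**Figure D3:**
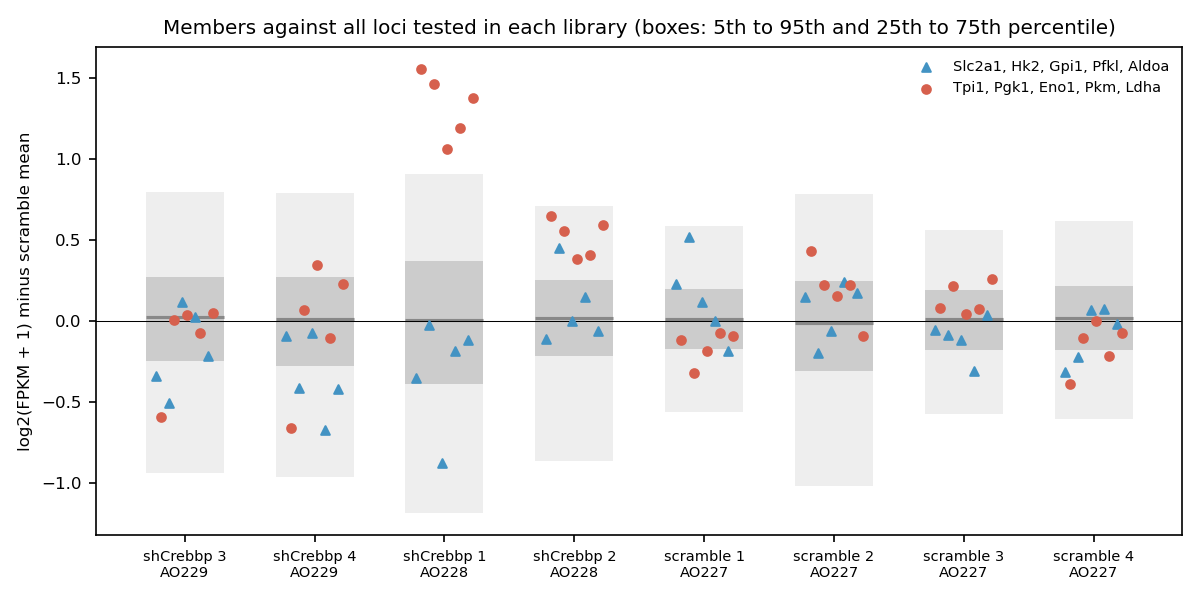
Deviation of log2(FPKM + 1) from the scramble mean (y axis) in each library, with triangles for Slc2a1 to Aldoa, circles for Tpi1 to Ldha, and grey boxes for the 5th to 95th and 25th to 75th percentiles of all loci tested. The 5 circles of shCrebbp 1, at 1.06 to 1.55, lie above its outer box, which ends at 0.91.

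Some members share sequence or position with other genes. RefSeq names 2 pseudogenes or related copies of Aldoa, 3 of Pgk1 and 3 of Ldha, and how reads shared with them were assigned is not given in the sources used here, so the levels of these members carry that uncertainty. Eno1b, a processed copy of Eno1, had 7.15, 5.41, 3.03 and 4.43 FPKM in shCrebbp 1 to 4, against 2.07, 2.06, 4.56 and 3.54 FPKM in scramble 1 to 4, well under Eno1 in every library. The deposited locus of Tpi1 overlaps Spsb2 on the opposite strand, which had 5.81, 3.78, 3.29 and 2.80 FPKM in shCrebbp 1 to 4, against 2.51, 2.57, 3.17 and 4.0 FPKM in scramble 1 to 4. Slc2a1, Hk2, Gpi1, Pfkl and Aldoa also overlap genes annotated on the opposite strand. For Pfkl this is the protein-coding gene 1810043G02Rik. That gene had 6.26, 5.46, 4.07 and 5.01 FPKM in shCrebbp 1 to 4, against 3.65, 4.15, 4.75 and 5.97 FPKM in scramble 1 to 4. On their own strand, Slc2a1 overlaps a microRNA gene and Pkm another transcript. The kit keeps strand, but whether the counting used it is not given in the sources used here.

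The rest of the pathway was followed through lists of related genes. Among paralogs of the members and the steps between them, 13 of 22 loci were tested, none had an unadjusted p under 0.05 in shCrebbp minus scramble, and the median difference was 0.03. Between the prefixes 2 of the 13 were higher (7.75% of all loci) and 3 lower (8.64%) in AO229 at an unadjusted p under 0.05, none after adjustment. Gapdh, the dehydrogenase between Tpi1 and Pgk1, stood on 2 loci, and its values are from the one of higher mean. Gapdh had 139 and 149.9 FPKM in AO229 libraries, 204 and 265 FPKM in AO228 libraries, and 173, 167, 197 and 166 FPKM in scramble libraries. Its AO229 libraries were below and its AO228 libraries above every scramble library, and AO229 minus AO228 was -0.68 (SE 0.19; adjusted p = 0.121, limma). Pgam1, the mutase between Pgk1 and Eno1, added after its values were seen, had 35.5 and 37.9 FPKM in AO229, 62.5 and 54.4 FPKM in AO228, and 35.7, 58.7, 30.3 and 36.7 FPKM in scramble libraries. Here scramble 2 lay above shCrebbp 2, unlike in the late members (AO229 minus AO228 -0.66; SE 0.28; adjusted p = 0.297, limma). Pfkp, the platelet-type phosphofructokinase, was more abundant than Pfkl and had 25.5 and 23.0 FPKM in AO229, 40.8 and 60.7 FPKM in AO228, and 38.7 to 58.8 FPKM in scramble libraries (AO229 minus AO228 -1.01; SE 0.26; adjusted p = 0.0968, limma). Slc2a3, which encodes the high-affinity carrier GLUT3, went the other way with 8.02 and 9.55 FPKM in AO229, 3.20 and 2.12 FPKM in AO228, and 1.54 to 5.99 FPKM in scramble libraries (AO229 minus AO228 1.43; SE 0.47; adjusted p = 0.175, limma).

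Regulators of fructose 2,6-bisphosphate, the activator of phosphofructokinase, included Pfkfb4, a bifunctional kinase and phosphatase. Pfkfb4 stood at 8.27 and 5.54 FPKM in AO229, 1.09 and 0.850 FPKM in AO228, and 1.8 to 5.79 FPKM in scramble libraries (AO229 minus AO228 1.99; SE 0.42; adjusted p = 0.0645, limma). It was the only one of 5 tested genes of this list under an unadjusted p of 0.05 between the prefixes, where 7.75% of all loci were higher in AO229 by that rule. For lactate and pyruvate handling, 14 of 17 loci were tested. One of them, Slc16a3, which encodes the lactate exporter MCT4, was lower in AO229 at an unadjusted p under 0.05, a share near the 8.64% of all loci. Slc16a3 had 0.354 and 0.272 FPKM in AO229, 4.68 and 1.40 FPKM in AO228, and 0.182 to 0.750 FPKM in scramble libraries (AO229 minus AO228 -1.49; adjusted p = 0.199, limma). Without shCrebbp 1 that difference was -0.87, and with a pseudocount of 0.1 it was -2.70. In the same list Pdk1, the kinase that restrains pyruvate dehydrogenase, was the single gene with an unadjusted p under 0.05 in shCrebbp minus scramble (log2 difference 0.66; adjusted p = 0.915, limma), beside 5.02% of all loci. Its 21.1, 9.56, 11.9 and 13.3 FPKM in shCrebbp 1 to 4 overlapped the 5.40, 8.46, 11.0 and 8.39 FPKM of scramble 1 to 4.

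Side branches of glycolysis showed a single call. Of 5 genes of serine synthesis, all tested, 3 were lower in AO229 than in AO228 at an unadjusted p under 0.05 (8.64% of all loci), the median difference was -0.56 beside 0.00 over all loci, and 1 passed after adjustment (1.28% of all loci). That gene was Psat1, phosphoserine aminotransferase, which fell in AO229 relative to AO228 by 1.19 on the log2 scale (SE 0.21; adjusted p = 0.0443, limma). Psat1 had 10.9 and 11.4 FPKM in AO229, 22.9 and 31.2 FPKM in AO228, and 14.4, 14.0, 12.1 and 15.9 FPKM in scramble libraries, so the AO228 libraries were above and the AO229 libraries below every scramble library. The call was lost with no filter (adjusted p = 0.115), with a prior without trend (0.0764) and without any one library other than scramble 2 (0.056 to 0.345, limma). The mitochondrial serine hydroxymethyltransferase Shmt2 had 23.7 and 25.3 FPKM in AO229, 44.6 and 42.0 FPKM in AO228, and 26.7 to 35.0 FPKM in scramble libraries (adjusted p = 0.0685, limma). In shCrebbp minus scramble none of the 5 had an unadjusted p under 0.05.

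Of 8 tested loci of the pentose phosphate pathway, 7 had a difference above 0 and 1 below 0 in shCrebbp minus scramble, with a median of 0.21 beside 0.01 over all loci. The locus of the transketolase Tkt, which also takes in a microRNA gene, alone had an unadjusted p under 0.05 there (log2 difference 0.30), a rule met by 5.02% of all loci. Between the prefixes 5 of the 8 were above 0 and 3 below 0. At an unadjusted p under 0.05, 2 were higher in AO229 (7.75% of all loci) and 1 was lower (8.64%). These were H6pd at 1.09 (adjusted p = 0.170; 1.78 with a pseudocount of 0.1), Pgd, the decarboxylating dehydrogenase, at -0.91 (adjusted p = 0.0899), and at 0.96 (adjusted p = 0.0883, all limma) a locus that merges the lactonase gene Pgls with Fam129c and Glt25d1, whose value cannot be given to Pgls alone. Among genes of glycogen and gluconeogenesis, 9 of 11 loci were tested. The glycogen branching enzyme Gbe1 alone was higher in shCrebbp libraries at an unadjusted p under 0.05 (5.02% of all loci in either direction). Gbe1 had 7.32, 8.25, 5.40 and 6.06 FPKM in shCrebbp 1 to 4, all above the 3.95, 4.93, 4.73 and 3.78 FPKM of scramble 1 to 4 (log2 difference 0.53; SE 0.18; adjusted p = 0.915, limma). None of the 9 differed between the prefixes by that rule.

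Of the targets of HIF1 outside glycolysis, 14 of 17 loci were tested. Between the prefixes 7 were lower in AO229 at an unadjusted p under 0.05 (8.64% of all loci) and none higher (7.75%), 12 had a difference below 0, the median was -0.57 beside 0.00 over all loci, and none passed after adjustment. Bnip3, a mitophagy receptor, had 4.63 and 3.50 FPKM in AO229, 22.9 and 9.45 FPKM in AO228, and 3.45 to 6.17 FPKM in scramble libraries (AO229 minus AO228 -1.65; adjusted p = 0.0897, limma). Ankrd37 had 8.56 and 9.69 FPKM in AO229, 50.4 and 21.6 FPKM in AO228, and 10.7 to 24.2 FPKM in scramble libraries (AO229 minus AO228 -1.75; adjusted p = 0.0968, limma). For Bnip3, as for the late glycolytic genes, both AO228 libraries were above every scramble library, while for Ankrd37 scramble 2 lay above shCrebbp 2. Without shCrebbp 1, AO229 minus AO228 was -1.05 for Bnip3 and -1.16 for Ankrd37. None of the 14 had an unadjusted p under 0.05 in shCrebbp minus scramble.

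Of 6 tested loci of the HIF pathway itself, 1, that of the prolyl hydroxylase Egln1, was higher in shCrebbp than in scramble libraries at an unadjusted p under 0.05 (log2 difference 0.58; adjusted p = 0.915, limma), beside 5.02% of all loci in either direction. Between the prefixes 2 of the 6 were lower in AO229 by that rule (8.64% of all loci): Vhl, which marks HIF alpha subunits for destruction (-0.92; adjusted p = 0.0918, limma), and Hif1a (-0.64; adjusted p = 0.244, limma). Hif1a had 20.9 and 24.6 FPKM in AO229, 40.1 and 32.0 FPKM in AO228, and 23.6 to 39.1 FPKM in scramble libraries. In the list of transcription and glucose sensing (5 of 7 loci tested), Myc had 67.8 and 97.1 FPKM in AO229, 12.2 and 15.9 FPKM in AO228, and 16.8 to 58.2 FPKM in scramble libraries. Among shCrebbp libraries, Myc was thus higher in AO229 (AO229 minus AO228 2.46; SE 0.54; adjusted p = 0.0674, limma), where the late glycolytic genes were lower than in AO228. Against scramble libraries, the AO229 averages of Tpi1 and Pkm were lower, and those of Pgk1, Eno1 and Ldha were not. A link of Myc to these genes was not tested. Its partner Max differed by -0.63 in AO229 minus AO228 (adjusted p = 0.0968, limma). Of 11 tested genes of energy sensing and PI3K and mTOR signalling, 1, the kinase gene Akt1, was lower in AO229 at an unadjusted p under 0.05 (-0.50, with -0.30 without shCrebbp 1 and -0.33 without shCrebbp 4; adjusted p = 0.253, limma). By the same rule 8.64% of all loci were lower, a share near that of this list.

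**Figure D4:**
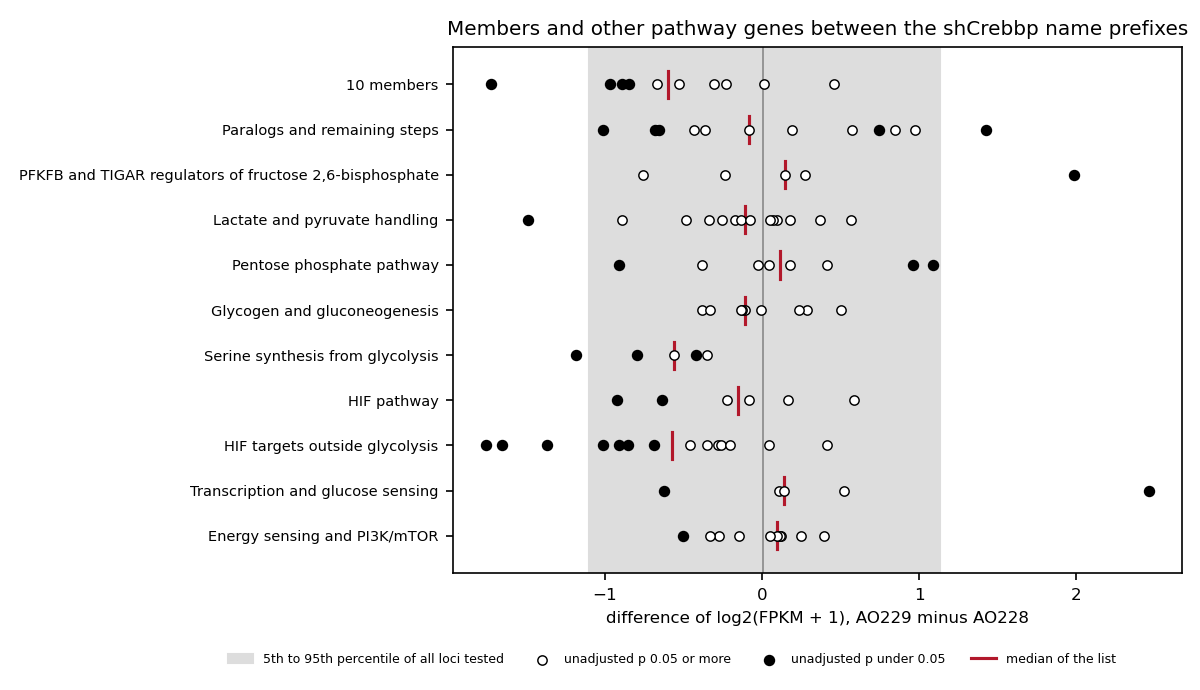
Difference of log2(FPKM + 1), AO229 minus AO228 (x axis), for each tested gene of every list; filled points have an unadjusted p under 0.05, red lines are medians and the grey band holds the 5th to 95th percentile of all loci. The medians of the 10 members (-0.60), serine synthesis (-0.56) and HIF targets (-0.57) lie left of 0, and those of the other lists lie nearer to 0.

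Genes were also sought whose levels most closely followed the mean of the 10 members' centred log2 values over the 8 libraries. That mean was 0.448 and 0.240 in shCrebbp 1 and 2, -0.210 and -0.240 in shCrebbp 3 and 4, and -0.072, 0.062, -0.047 and -0.181 in scramble 1 to 4. The mean does not stand for every member: in shCrebbp 1, Slc2a1 and Gpi1 lay below every scramble library, and Hk2, Pfkl and Aldoa lay within the scramble range. Among the single-gene loci of highest Pearson r to the mean of the 10 members were Gstt1, a glutathione transferase (r = 0.99), Klhl24 (0.99), Tcea1, a transcription elongation factor (0.98), and Efcab3 (0.98). Efcab3 was low, at 0.0952 to 5.04 FPKM over the 8 libraries. Leaving out shCrebbp 1 and 2, the libraries farthest from the median, left r at 0.94 to 0.98 for these 4. These values describe 8 libraries that share the split by prefix, and the genes were picked from all loci for their high r.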

How the data were processed

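Total RNA above 200 nt was made into stranded, ribosomal RNA-depleted libraries, per the labels' protocols. The submitters' processing notes name CASAVA 1.8, TopHat2, Cufflinks and mm10, without roles. The authors deposited 1 table of FPKM for each locus and library; its header names no unit, which was inferred from the values and locus identifiers. Its 25478 lines included 1 emptied line, and 5 of its 13 sample columns matched no sample and were not used. From the deposited FPKM, log2(FPKM + 1) was computed for 8 libraries, and 11417 of 25477 loci, those averaging 1 FPKM or more, were kept. The linear model of limma 3.58.1 (R 4.3.3) with a trended prior was fitted to the 2 groups and to the 3 name prefixes, 2-sided, adjusting p by Benjamini and Hochberg over every locus tested, at a threshold of 0.05. The script was tested on simulated data. Exact permutation tests covered the 70 divisions of the libraries. Replicates were numbered in accession order. Depth is unknown, so no counting interval is given.

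The members and the gene lists were chosen with earlier results of these data known. Named genes were all members, up to 3 genes of smallest p per list, and the 5 loci most like the members, of which 1 is not reported here. Marker lists covered B, T, macrophage, neutrophil, erythroid, plasma and stromal cells. Motifs were counted in RefSeq promoter windows. Alternatives were another pseudocount, other filters, scalings and prior, and each library left out.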

Additional observations from a re-analysis of the deposited data

Results flagged for a closer look

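In 2 of the groups of 4 libraries, one library lay far from the others. For Hk2 in scramble libraries, the gap between scramble 1 (4.25 FPKM) and the next library made up 0.855 of the group's whole range, with the other 3 libraries at 2.15 to 2.46 FPKM. For Ldha in scramble libraries, the gap between scramble 3 (82.6 FPKM) and the next library made up 0.949 of the range, with the other 3 at 64.4 to 65.3 FPKM. Both shares exceed Dixon's critical value for 4 libraries. Over 10 members in both groups, chance alone would flag about 1 group in 20.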

How the results depend on the processing

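The FPKM table gives no depth, so low genes such as Hk2 cannot be given a counting error, and 2 libraries per prefix limit every statement on prefixes. No paired analysis was possible because replicate numbers were given in accession order and pair nothing. Leaving out a shCrebbp library leaves a prefix with 1 library, assumed to vary like the others. Summing loci per symbol changed nothing, since each member has 1 locus, and Hk2 falls out at a mean of at least 5 FPKM. The cause of each change below was not tested.

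In shCrebbp minus scramble, 0 loci were called, 3 with no filter and 0 to 2 with a library left out. Members higher at an unadjusted p under 0.05 numbered 0, with 2 under quantile normalization and 0 to 2 with a library left out. Signs turned with a library left out for Gpi1 (-0.32 to 0.013, above 0 without shCrebbp 1), Hk2 (-0.32 to 0.046, above 0 without shCrebbp 3 or scramble 1) and Tpi1 (-0.20 to 0.54, below 0 without shCrebbp 1). In AO229 minus AO228, 146 loci were called, against 29 with no filter, 240 at a mean of at least 5 FPKM, 2 with a prior without trend, and 2 to 276 with a library left out: 8, 13, 11 and 70 without shCrebbp 1 to 4, and 2, 276 and 3 without scramble 1, 2 and 3. Members lower at an unadjusted p under 0.05 numbered 4, and 1 to 5 with a library left out (1 without shCrebbp 1, 2 without shCrebbp 3); members higher numbered 0 to 1, the 1 without shCrebbp 2. Slc2a1 ran from -0.11 to 0.14 and Pfkl from -0.66 to 0.043 with a library left out. Tpi1 passed the adjusted threshold with a pseudocount of 0.1 (adjusted p = 0.0463, limma), at a mean of at least 5 FPKM (0.0361), under quantile normalization (0.0353) and without scramble 2 (0.0467), and missed it under the other settings, up to 0.346. Among the list genes named, Psat1 is given with its result, and Myc, Pfkfb4 and Slc2a3 passed without scramble 2 (adjusted p = 0.0378, 0.0375 and 0.0437, limma), Myc also at a mean of at least 5 FPKM (0.0456). The 5 members higher in AO228 than in scramble numbered 1 to 5 with a library left out, an alternative added after the data were seen, with the 1 reached without shCrebbp 1.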
